A study of Mus musculus with 72 samples.

Results

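Chromatin accessibility after knockdown of the corepressor SMRT was compared with accessibility under a control hairpin in RAW264.7 cells, a macrophage-like mouse line of BALB/c origin. The deposited list of ATAC-seq peaks held 51984 peaks. The members were the 51352 peaks off the mitochondrial chromosome that reached a value of 10 or more in 3 or more of the 6 libraries. The value is the number of reads in a peak scaled to 10 M reads per library (M, mega). The tested cells carried a lentiviral short hairpin against SMRT (shSMRT, 3 libraries) and the control cells one against GFP (shGFP, 3 libraries). The cells of both groups had the hairpin vector, were kept in DMEM with serum and received no treatment. Cells with a hairpin against the paralogue NCOR (shNCOR, 3 libraries, same medium and no treatment) were used for 1 further comparison and to estimate the spread. The whole series has 72 samples, of which only these 9 libraries and their 9 RNA-seq counterparts were used here. Each group is a population infected with 1 named hairpin, so an effect of the hairpin sequence and of the loss of its target cannot be told apart. The protocol text of the labels speaks of wild-type cells in triplicate wells whereas the titles name hairpins, and the titles were followed. Nothing in the labels states whether replicates were grown apart, so p-values cover only library-to-library spread, possibly technical. RNA of the targeted gene was not analysed here, and accessibility does not measure a knockdown.

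SMRT and NCOR are scaffold proteins that join sequence-specific transcription factors, among them nuclear receptors, to the histone deacetylase HDAC3 and the TBL1 proteins. In macrophages the complex is known for holding down inflammatory and lipid genes until a receptor ligand or an activating signal releases it. ATAC-seq marks chromatin that a transposase can enter, which includes active promoters and enhancers, and so reads the state of regulatory elements rather than transcription itself. The nearest gene named for a peak below is a neighbour on the chromosome and was not shown to be its target.

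The sequences on which the promoter results turn come from RefSeq promoter windows of the GRCm38.p6 assembly, which run from 250 bases before to 50 after a start site. A window was joined to a peak where they overlapped by at least 100 bp. Among windows whose peak was called higher in shSMRT, AP-1 letters (TGACTCA on either strand) were held by 26 windows of 23 genes. AP-1 is the dimer of FOS and JUN family proteins. The 6 stretches below show these letters in capitals with 20 bases on each side, for the 3 genes with the largest rise among those with more than a clone or Gm name (Defb26, a defensin, Atp13a4, a cation-transporting ATPase, and Cdk15, a cyclin-dependent kinase) and for 3 of the 5 genes whose RNA was also tested. In the other genes tested in RNA, Clec4a2 and Retreg1, the letters lie past or across the start site. All were chosen after their values were seen.
Defb26, chr2:152511820-152511866, minus strand: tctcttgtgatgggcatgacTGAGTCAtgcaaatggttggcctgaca
Atp13a4, chr16:29545016-29545062, minus strand: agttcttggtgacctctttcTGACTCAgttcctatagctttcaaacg
Cdk15, chr1:59256842-59256888, plus strand: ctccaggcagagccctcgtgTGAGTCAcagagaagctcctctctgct
Olr1, chr6:129507199-129507245, minus strand: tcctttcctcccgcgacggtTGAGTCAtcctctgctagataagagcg
Rcan1, chr16:92400162-92400208, minus strand: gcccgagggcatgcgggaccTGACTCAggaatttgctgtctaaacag
Itgax, chr7:128129474-128129520, plus strand: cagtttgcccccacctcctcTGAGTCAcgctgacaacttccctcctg

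The letters begin 110 bases before the start site in both Defb26 and Rcan1, 178 in Atp13a4, 44 in Cdk15, 60 in Olr1 and 56 in Itgax. The next 4 stretches are the 250 bases before the start site of genes among the most changed promoters, with every match to the 21 motifs searched in capitals. Cmklr1 and Hspa1a had peaks higher in shSMRT, and Calhm6 and Fam13c had peaks lower in shSMRT.
Cmklr1, chr5:113643604-113643853, minus strand: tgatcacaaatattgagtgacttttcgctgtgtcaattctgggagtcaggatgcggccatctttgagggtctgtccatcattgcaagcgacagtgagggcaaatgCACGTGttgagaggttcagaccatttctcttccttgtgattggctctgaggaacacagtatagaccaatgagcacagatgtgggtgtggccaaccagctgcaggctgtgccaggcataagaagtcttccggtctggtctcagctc
Hspa1a, chr17:34972157-34972406, minus strand: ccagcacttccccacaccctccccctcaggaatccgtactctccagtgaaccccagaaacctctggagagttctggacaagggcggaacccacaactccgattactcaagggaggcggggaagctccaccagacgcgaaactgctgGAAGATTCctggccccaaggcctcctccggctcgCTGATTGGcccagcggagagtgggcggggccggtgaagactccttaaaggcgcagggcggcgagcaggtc
Calhm6, chr10:34127973-34128222, minus strand: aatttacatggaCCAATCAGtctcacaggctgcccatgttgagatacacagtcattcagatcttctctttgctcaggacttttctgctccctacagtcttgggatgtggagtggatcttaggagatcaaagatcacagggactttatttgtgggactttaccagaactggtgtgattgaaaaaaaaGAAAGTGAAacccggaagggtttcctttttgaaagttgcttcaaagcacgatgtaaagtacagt
Fam13c, chr10:70440660-70440909, plus strand: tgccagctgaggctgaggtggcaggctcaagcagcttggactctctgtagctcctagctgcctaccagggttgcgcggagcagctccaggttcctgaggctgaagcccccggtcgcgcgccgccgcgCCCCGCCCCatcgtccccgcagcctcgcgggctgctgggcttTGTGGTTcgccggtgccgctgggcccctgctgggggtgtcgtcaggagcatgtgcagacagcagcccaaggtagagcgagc

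In capitals, Cmklr1 holds the E-box CACGTG that MITF and TFEB bind. Hspa1a holds GAANNTTC, a heat shock element core, and CCAATCAG, an NFY site, read on the other strand. Calhm6 holds CCAATCAG and GAAANNGAA, the core that IRF factors bind. Fam13c holds GGGGCGGGG, a KLF and SP site read on the other strand, and TGTGGTT, a RUNX site. Of all 32817 RefSeq windows, 7.15% hold the E-box, 7.86% the heat shock core, 4.09% the NFY letters, 8.55% the IRF core, 11.4% the KLF and SP letters and 5.27% the RUNX letters. A match is a description of the letters, not a bound site.

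The libraries held 7.07 to 10.65 M reads in shSMRT and 8.94 to 10.84 M in shGFP. Peaks off the mitochondrial chromosome took 47.2, 49.4 and 48.9% of the reads in the 3 shSMRT libraries and 53.5, 50.1 and 52.7% in the 3 shGFP libraries, so every shSMRT library lay below every shGFP library. Replicates were alike, with Pearson's r of log2 values of 0.940 to 0.951 within shSMRT and 0.958 to 0.962 within shGFP over the member peaks. No pair of libraries agreed within sampling noise, with a chi-square per peak of 1.65 or more. Of the 21 macrophage lineage genes on the list, 18 had a peak at the promoter. The promoter of Spi1, the gene of the lineage factor PU.1, averaged 207.9 in shSMRT and 225.1 in shGFP, and that of Cd68, a macrophage membrane protein, 445.5 in shSMRT and 464.0 in shGFP, and neither was called. For markers of other cell types, 9 of 13 neutrophil and mast cell genes, 8 of 12 lymphocyte genes and 8 of 13 fibroblast and epithelial genes were listed at 0 RPKM in all 6 RNA libraries. Their summed RNA was 0.977 to 1.26 RPKM in shSMRT and 1.17 to 1.78 in shGFP for the first list. It was 0.893 to 1.63 RPKM in shSMRT and 0.944 to 1.32 in shGFP for the second, and 0.222 to 0.233 in shSMRT and 0.058 to 0.106 in shGFP for the last. These sums were small beside 9774 to 10298 RPKM in shSMRT and 6735 to 6855 in shGFP for the macrophage list.

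In cells with the SMRT hairpin, a set of strongly changed peaks, mostly far from start sites, was higher, and a larger set of modestly changed peaks, many of them at promoters, was lower. Calls used limma on log2(value + 5) with p adjusted by Benjamini-Hochberg over 51351 peaks and a threshold of 0.05, since 1 member had a cell without a number. In shSMRT against shGFP, 3507 peaks (6.83%) were called higher and 5605 (10.9%) lower. The 3 libraries of shSMRT lay above all those of shGFP for 13.3% of peaks and below them for 22.0%. By at least 1 log2 unit the order of the directions turned: 1626 peaks (3.17%) were higher and 497 (0.968%) lower. The balance depended on the scaling. Higher peaks were 38.5% of the calls with the deposited scaling, 56.6% after quantile normalization (4391 higher, 3363 lower) and 62.7% after scaling to the sum over peaks (4576 higher, 2723 lower). Without the first shGFP library 2716 peaks were called lower, and without the third 3225.

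Peaks called higher had a lower median level than peaks called lower in both groups, whereas among the most changed peaks the raised ones were low in shGFP and the lowered ones low in shSMRT. Of the called-higher peaks, 1570 (44.8%) were listed by the authors in all 6 libraries. The called-higher peaks had a median value of 62.1 in shSMRT against 27.9 in shGFP, with a median log2 difference of 0.95. The called-lower peaks had medians of 120 in shSMRT and 169 in shGFP, with a median log2 difference of -0.47. Among peaks higher by at least 1 unit the medians were 45.8 in shSMRT and 14.4 in shGFP, and among peaks lower by at least 1 unit they were 18.4 in shSMRT and 51.7 in shGFP. In the authors' calls per library, 543 of the 1626 (33.4%) were listed in all 3 shSMRT libraries and in no shGFP library, and 179 of the 497 (36.0%) were listed in all 3 shGFP libraries and in no shSMRT library. Members that had under 10 in all 3 shGFP libraries numbered 227, and they could enter the list only through shSMRT, so the 209 of them called higher are a product of the rule. Likewise 38 of the 67 members with under 10 in all 3 shSMRT libraries were called lower.

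The 10 most raised peaks lay away from promoters, 8 of them more than 20 kb from a start site. The first was 98.8 kb from Mir148a, a microRNA gene (chr6:51170917-51171214, mm10, intergenic), with 86.38, 124.78 and 113.19 in shSMRT against 2.24, 8.44 and 5.53 in shGFP. All 3 shSMRT libraries were above 80 and all 3 shGFP libraries under 10, a log2 difference of 3.47 ± 0.30 (SE). This peak, those of Maf and Prdm1 described next, and 1 each near Hpgd and Abca1 below had under 10 in every shGFP library and so entered the list only through shSMRT. Peaks that reached 10 in some but not all shGFP libraries also needed shSMRT values to enter. Those of Tnfsf8, Lpar1, Hspa1a, Ccl7 and Mx1 named below are of this kind. The differences of all these peaks are descriptions and no p is given for them. A neighbour 96.8 kb from Mir148a (chr6:51172890-51173406) had 166.19, 172.42 and 188.17 in shSMRT against 22.36, 14.06 and 28.59 in shGFP. Its difference was 2.80 ± 0.20, and the libraries did not overlap. A peak 56.5 kb from Maf, which encodes a leucine zipper factor of macrophages and lymphocytes (chr8:115650153-115650610), had 82.62, 95.29 and 58.01 in shSMRT against 6.71, 3.75 and 5.53 in shGFP. The difference was 3.00 ± 0.36. A peak 60.1 kb from Prdm1, the gene of the repressor Blimp-1 (chr10:44518621-44519034), had 42.25, 55.58 and 65.08 in shSMRT against 7.83, 1.87 and 0 in shGFP, a difference of 2.94 ± 0.42. A peak 9.5 kb from Tnfsf8, the gene of CD30 ligand (chr4:63870475-63871084), had 87.32, 78.27 and 130.17 in shSMRT against 6.71, 11.25 and 8.3 in shGFP, a difference of 2.89 ± 0.37. Of the 7 tested peaks assigned to Tnfsf8, 7 were called higher. RNA of Maf, Prdm1 and Tnfsf8 was 0.163 to 0.499 RPKM in the shSMRT libraries and 0 in the 3 shGFP libraries, too low to be tested.

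The 10 most lowered peaks were of several kinds. A peak 60.5 kb from Lrpap1, which encodes a chaperone of the LDL receptor family (chr5:35166036-35166448), had 3.76, 10.21 and 0 in shSMRT against 54.79, 64.68 and 87.6 in shGFP. The difference was -3.06 ± 0.40, and RNA of Lrpap1 was not called (log2 0.11, adjusted p = 0.053). This peak, like the Fxyd2 and Stc2 promoters below, did not reach 10 in all shSMRT libraries and needed shGFP values to enter. Their differences are descriptions. An intronic peak 9.3 kb from the start of Exoc3l2 (chr7:19472401-19472861) had 22.53, 20.42 and 22.64 in shSMRT against 142.01, 155.62 and 154 in shGFP, a difference of -2.53 ± 0.20, and RNA of Exoc3l2 fell by 0.95 on the log2(RPKM + 1) scale. An intergenic peak 7.4 kb from Gpr132, the gene of a G protein-coupled receptor of leukocytes (chr12:112868232-112868493), had 14.08, 26.09 and 18.39 in shSMRT against 143.12, 108.75 and 125.41 in shGFP, a difference of -2.44 ± 0.25. RNA of Gpr132 fell by 0.75. The promoter of Tmem176b, which encodes a membrane protein of myeloid cells (chr6:48840501-48841555), had 12.21, 15.88 and 28.3 in shSMRT against 112.93, 137.81 and 116.19 in shGFP. The difference was -2.47 ± 0.28, and RNA of Tmem176b was 17.0, 15.2 and 16.5 RPKM in shSMRT against 81.9, 76.2 and 78.9 in shGFP. In bulk RNA, fewer cells that express a gene and less RNA per cell cannot be told apart.

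**Figure D1:**
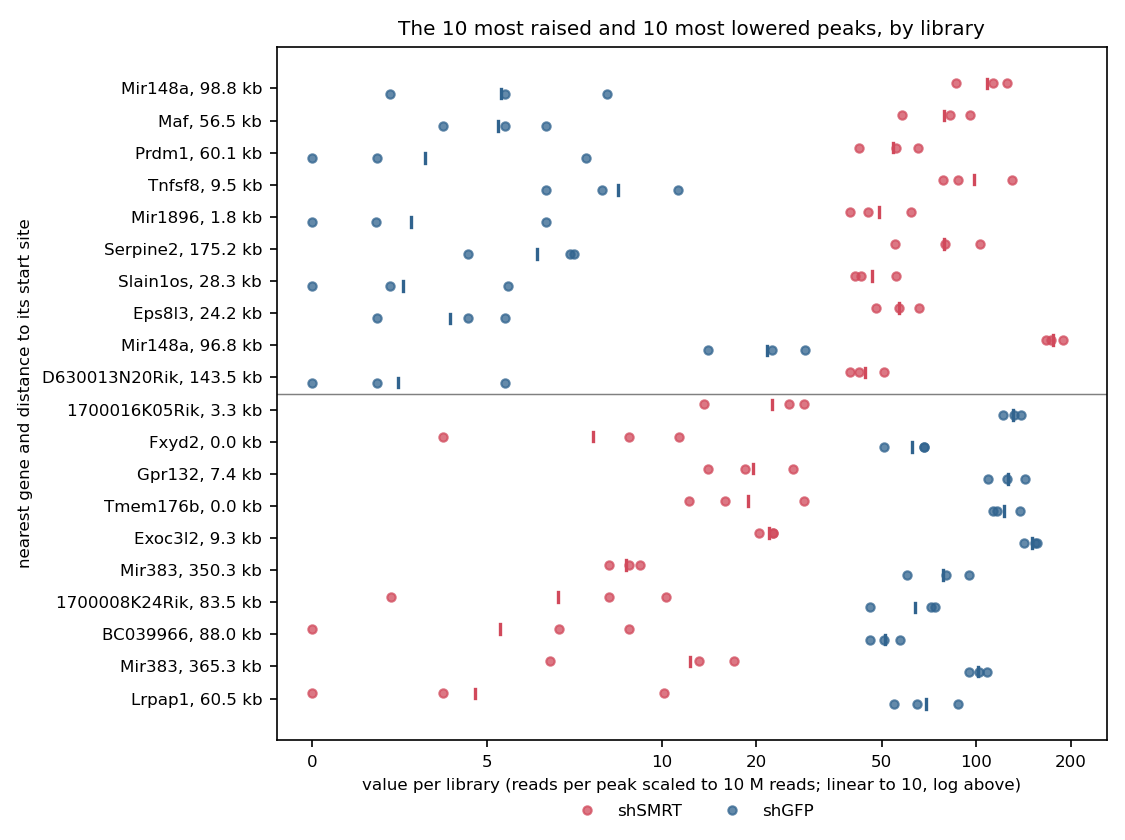
Values of the 10 most raised peaks (upper rows) and the 10 most lowered (lower rows), as reads per peak scaled to 10 M reads, 1 point per library with the group mean as a bar, shSMRT in red and shGFP in blue. The axis is linear to 10 and logarithmic above, and the libraries of shSMRT and shGFP do not overlap in any row, which was a condition of the choice.

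Promoter peaks were called lower far more often than higher. Within 1 kb of a start site, 190 of 11707 tested peaks (1.62%) were called higher and 2563 (21.9%) lower, and the median log2 difference was -0.20. Between 1 and 20 kb, 1271 of 19799 (6.42%) were higher and 1690 (8.54%) lower, with a median of -0.06. Beyond 20 kb, 2046 of 19833 (10.3%) were higher and 1351 (6.81%) lower, with a median of 0.00. Of the peaks higher by at least 1 unit, 63.0% lay beyond 20 kb and 4.31% within 1 kb. Of those lower by at least 1 unit, 46.1% lay beyond 20 kb and 8.85% within 1 kb, against 38.6% and 22.8% of all tested peaks, so the strongly lowered peaks were also less often at start sites than peaks at large. The deposited class of promoter and start site gave 140 higher and 2096 lower of 9186. The count of lower promoter peaks fell to 716 after quantile normalization and to 821 after scaling to the sum over peaks, and it was 3387 after centring on the peaks beyond 20 kb. It was 817 without the first shGFP library, 1167 without the third and 1155 without the first shSMRT library. In each of these settings more promoter peaks were lower than higher. The share of reads in peaks, given above, was lower in each shSMRT library than in each shGFP library, and its part in this shift was not tested.

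**Figure D2:**
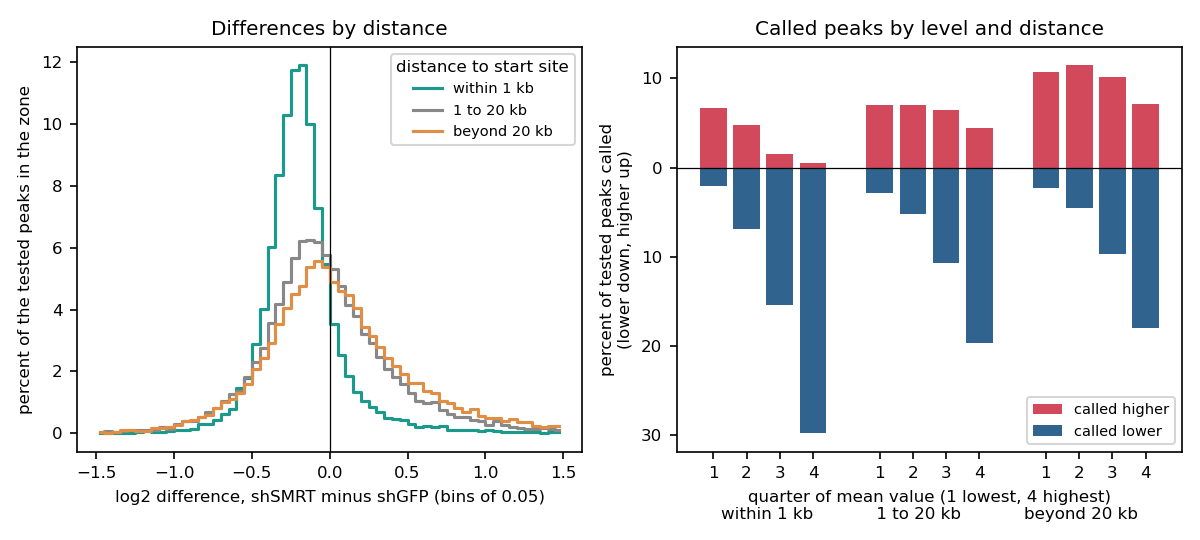
Left, the share of tested peaks in each bin of the log2 difference (shSMRT minus shGFP), by distance to the start site. Right, the percent of tested peaks called higher (red, upward) and lower (blue, downward) by distance and by 4 equal bins of mean value. The promoter curve is narrow and peaks below 0, and the share called lower grows with the level in every distance zone.

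Level and distance moved together. In the top bin of 4 equal bins by mean value, 378 peaks were called higher and 3162 lower, whereas in the lowest bin 1153 were higher and 322 lower. In the top bin within 1 kb of a start site, 34 of 6698 peaks (0.508%) were higher and 1998 (29.8%) lower. In the top bin beyond 20 kb, 192 of 2707 (7.09%) were higher and 489 (18.1%) lower. Relative counting error also falls with the level, and its part in these counts was not tested. Peaks with CpG island as their deposited detailed class were called lower in 234 of 1084 cases (21.6%) and higher in 18. That class leaves out peaks classed as promoter. Among repeats, peaks in LINE elements were called higher in 174 of 1555 cases (11.2%) and lower in 83 (5.34%). LTR elements held 7.75% of all tested peaks, 147 of those higher by at least 1 unit (9.04%) and 75 of those lower by at least 1 unit (15.1%). By chromosome the median difference ran from -0.02 on chromosome 9 to -0.12 on chromosome 11 among autosomes, and it was -0.19 on the X, where 24 of 946 peaks were higher and 133 lower.

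A few promoters opened against this trend. The promoter of Lpar1, a receptor for lysophosphatidic acid (chr4:58552992-58553569), had 77.93, 89.62 and 72.16 in shSMRT against 8.95, 7.5 and 14.75 in shGFP. The difference was 2.49 ± 0.29, and RNA of Lpar1 was 1.38, 1.41 and 1.28 RPKM in shSMRT against 0.04, 0.03 and 0.074 in shGFP. The promoter of Cmklr1, the receptor of the chemoattractant chemerin (chr5:113643582-113643810, printed above), had 61.97, 74.87 and 67.91 in shSMRT against 13.42, 10.31 and 11.07 in shGFP, a difference of 2.14 ± 0.35. Its RNA stayed at 0.105 RPKM or less in all 6 libraries. The promoter of Hspa1a, which encodes the inducible chaperone HSP70 (chr17:34972165-34972621), had 68.54, 63.52 and 46.69 in shSMRT against 8.95, 5.62 and 16.6 in shGFP, a difference of 2.12 ± 0.30, with RNA at 0.266 RPKM or less. The promoter of Atp6v0d2, a proton pump subunit of osteoclasts and macrophages (chr4:19922443-19922760), had 159.62, 140.66 and 145.73 in shSMRT against 30.19, 30.94 and 35.96 in shGFP. The difference was 2.04 ± 0.16 (adjusted p = 1.5e-13), and its RNA was 48.7, 47.2 and 45.6 RPKM in shSMRT against 3.23, 3.79 and 3.15 in shGFP. The libraries of shSMRT and shGFP did not overlap in any of these promoters, by the rule that chose them.

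Among the promoters that closed most, Fam13c (chr10:70440573-70440962, printed above) had 15.02, 15.88 and 18.39 in shSMRT against 91.69, 94.68 and 71.93 in shGFP. The difference was -2.08 ± 0.24, its RNA fell by 1.40 on the log2(RPKM + 1) scale, and 4 of its 4 tested peaks within 50 kb were called lower. The promoter of Fxyd2, a regulatory subunit of the sodium pump (chr9:45403064-45403235), had 3.76, 9.07 and 11.32 in shSMRT against 68.21, 68.43 and 50.72 in shGFP, a difference of -2.41 ± 0.27. Its RNA was 354, 327 and 375 RPKM in shSMRT against 522, 423 and 491 in shGFP and fell by 0.44. The promoter of Stc2, a secreted glycoprotein (chr11:31369804-31370311), had 5.63, 19.28 and 2.83 in shSMRT against 35.78, 42.19 and 54.41 in shGFP, a difference of -1.94 ± 0.39, and its RNA fell by 1.24. The promoter of Cbfa2t3, a corepressor of the ETO family (chr8:122699106-122699571), had 20.66, 24.96 and 26.88 in shSMRT against 101.75, 88.12 and 122.64 in shGFP, a difference of -1.90 ± 0.29, with RNA under 0.2 RPKM in all 6 libraries. The promoter of Calhm6, a channel protein that interferon induces (chr10:34127541-34128338), had 48.82, 22.69 and 38.2 in shSMRT against 105.11, 132.18 and 138.32 in shGFP. The difference was -1.69 ± 0.23, and its RNA fell by 1.36. Another peak, 14.5 kb from the start of Calhm6, was called higher (1.08 ± 0.30), though not without the third shGFP library.

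Motif letters differed between promoter windows whose peaks rose and those whose peaks fell. AP-1 letters stood in 19.4% of the 134 windows with a peak called higher, 3.50% of the 2654 with a peak called lower, 3.92% of the 8167 with a peak not called and 5.20% of all RefSeq windows. The KLF and SP letters went the other way, with 8.21% of the higher, 30.5% of the lower and 21.1% of the uncalled windows. Base composition moved with these shares: the median window had 53.7% G and C and 9 CpG where the peak rose, 64.7% and 25 where it fell, and 61.0% and 21 where it was not called. Within windows of under 15 CpG, AP-1 letters stood in 27.8% of 90 higher, 6.97% of 459 lower and 9.11% of 2108 uncalled windows. In the same windows the core AGGTCA of nuclear receptor sites stood in 25.6% of higher, 13.3% of lower and 15.3% of uncalled windows. The C/EBP letters TTGCNNAA stood in 18.9% of higher, 11.5% of lower and 13.8% of uncalled windows. Over all windows the AP-1 share of the higher set was 13.5% after quantile normalization, over 282 windows, and 15.9 to 20.8% when 1 library was left out. In the fits with 1 library left out, 16 to 22 windows with AP-1 letters had a peak called higher, against 26 in the main fit. These shares are descriptions, since windows of neighbouring start sites share sequence.

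**Figure D3:**
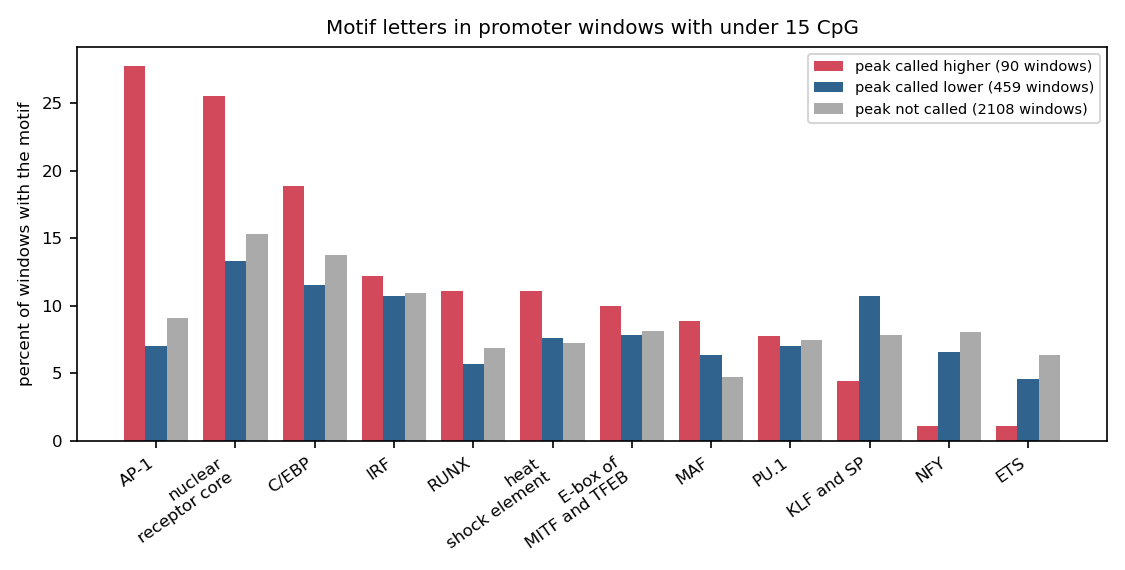
Percent of RefSeq promoter windows with under 15 CpG that hold the letters of each of 12 motifs, for windows with a peak called higher (red, 90 windows), called lower (blue, 459) and not called (grey, 2108) in shSMRT against shGFP. AP-1 is at 27.8% of the higher windows, and the KLF and SP letters are at 4.44% there and 10.7% of the lower windows.

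Of the 23 genes with AP-1 letters in an opened window, 5 were tested in RNA, and 4 of them rose and none fell. This is near the share over all tested genes with a promoter peak called higher, of which 66 of 83 (79.5%) rose, and nothing particular to the AP-1 genes is read from it. Background for RNA was high: of 10789 genes tested with limma on log2(RPKM + 1), 24.4% rose and 31.4% fell in shSMRT. The promoter of Rcan1, a regulator of the phosphatase calcineurin, had 190.6, 203.05 and 175.44 in shSMRT against 100.63, 82.5 and 101.43 in shGFP, a difference of 0.97, and its RNA rose by 1.86. The promoter of Olr1, a scavenger receptor for oxidized LDL, had 51.64, 40.84 and 25.47 in shSMRT against 16.77, 13.12 and 17.52 in shGFP, a difference of 1.05 that was not called without the first shSMRT library (adjusted p = 0.11). Its RNA rose by 1.28. The promoter of Itgax, the gene of the integrin CD11c, had 201.87, 254.1 and 215.06 in shSMRT against 145.36, 186.55 and 169.67 in shGFP, a difference of 0.41. It was not called without the first shGFP library (adjusted p = 0.10) or without the second shSMRT library (0.085), whereas its RNA rose by 3.35. Among FOS and JUN family genes on the lists, RNA rose for Fos (0.99), Junb (0.81), Fosl2 (0.74) and Fosl1 (0.54), as log2 differences. It fell for Jun (-0.34), and Fosb was not tested. Jund was not on the lists. RNA of Atf3, of the ATF family, rose by 0.56. A link of these changes to the promoter windows was not tested.

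Accessibility and RNA changed in the same direction for many genes of large RNA change. RNA rose by at least 1 log2 unit for 1.45% of tested genes and fell by as much for 0.371%. Within 50 kb of the genes whose RNA rose that far, 138 of 640 peaks (21.6%) were called higher and 27 (4.22%) lower. Within 50 kb of the genes whose RNA fell that far, 1 of 108 peaks was called higher and 47 (43.5%) lower. For all other tested genes the shares were 4.05% higher and 14.0% lower of 28306 peaks. A higher peak lay near 77 of 152 genes of the first kind (50.7%), and a lower one near 29 of 36 of the second (80.6%). Among other tested genes 10.2% had a higher peak and 32.8% a lower one nearby, and 24 of the 152 genes of the first kind (15.8%) had a lower one. Read from the peaks, RNA rose for 222 and fell for 83 of the 443 tested genes near peaks raised by at least 1 unit, and it rose for 41 and fell for 105 of the 212 near peaks lowered as far. Of 2319 tested genes with a promoter peak called lower by any size, RNA fell for 941 (40.6%) and rose for 425, against 31.4% and 24.4% of all genes. These shares have no minimum change, unlike those for peaks changed by at least 1 unit. Within 1 kb of genes whose RNA fell by at least 1 log2 unit, 18 of 28 peaks (64.3%) were lower. For other tested genes that share was 23.8%. Over 8842 genes with a promoter peak, Pearson's r between the log2 differences was 0.34 and Spearman's rank correlation 0.20, as a description across genes that are not independent.

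**Figure D4:**
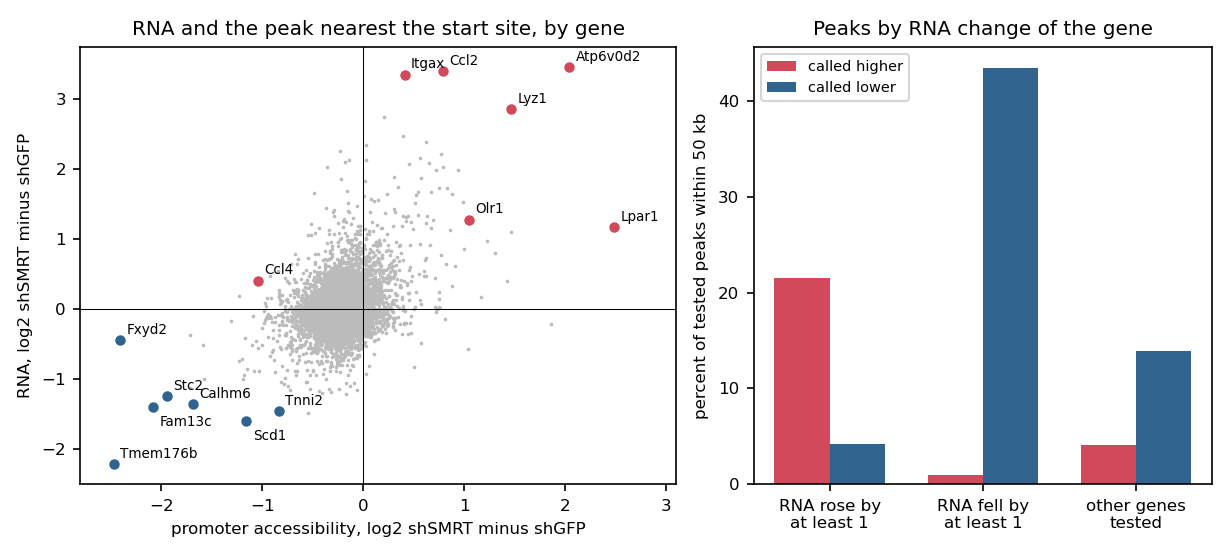
Left, the log2 difference in RNA (shSMRT minus shGFP) against that of the peak nearest the start site, 1 point per gene, with named genes coloured by the direction of their RNA. Right, the percent of tested peaks within 50 kb called higher (red) and lower (blue), for genes whose RNA rose by at least 1 log2 unit, fell by as much, or neither. Ccl4 sits apart, with a lower promoter and higher RNA, and 43.5% of peaks near strongly lowered genes were called lower.

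The genes with the largest RNA rise, a list taken from the RNA of these same cells, had 19 of 39 peaks called higher and none lower, with a median of 0.57. Hpgd, the enzyme that inactivates prostaglandins, had the largest RNA rise (62.5, 58.9 and 61.2 RPKM in shSMRT against 0.689, 0.508 and 0.7 in shGFP). A peak 9.4 kb from its start (chr8:56284990-56285329) had 39.43, 41.97 and 69.33 in shSMRT against 2.24, 0 and 9.22 in shGFP, a difference of 2.75 ± 0.41, as a description. For Itgax, a peak 7.6 kb away (chr7:128121701-128122261) had 76.05, 79.41 and 59.42 in shSMRT against 20.13, 11.25 and 20.29 in shGFP, a difference of 1.81 ± 0.27, larger in size than that of its promoter. The promoter of Ccl2, a chemokine for monocytes, was already open, with 372.75, 376.61 and 374.94 in shSMRT against 206.86, 217.49 and 222.23 in shGFP. Its difference of 0.78 ± 0.09 stood beside an RNA rise of 3.40. The peak at the start of Lyz1, the gene of lysozyme (chr10:117292210-117292960), had 148.35, 154.27 and 176.86 in shSMRT against 44.73, 76.87 and 47.03 in shGFP, a difference of 1.46 ± 0.16, and its RNA rose by 2.86. A peak 43.8 kb from Tnc, the gene of the matrix protein tenascin C, rose by 2.11 ± 0.41, and its RNA by 2.99. Not every large RNA rise had a called nearest peak. That of Acp5, the osteoclast acid phosphatase, lay 4.7 kb from its start and differed by 0.14 (limma adjusted p = 0.70), and that of Uchl1, a deubiquitinating enzyme, lay 13.0 kb away and differed by -0.27 (0.66), while RNA of each rose by 2.81. The nearest peaks of Hpgd, 5.1 kb away (0.67, adjusted p = 0.081), and of Mmp12, a macrophage elastase, 1.4 kb away (0.62, adjusted p = 0.24), were not called either.

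The genes with the largest RNA fall, chosen in the same way, had 1 of 27 peaks called higher, near Calhm6, and 17 lower, with a median of -0.70. Besides Tmem176b, Fam13c and Calhm6 they include Scd1, the desaturase that makes oleic acid. Its promoter (chr19:44407758-44408491) had 96.71, 97.56 and 60.84 in shSMRT against 182.26, 175.31 and 220.39 in shGFP, a difference of -1.16 ± 0.14 (adjusted p = 1.8e-08), and its RNA was 19.1, 19.7 and 18.4 RPKM in shSMRT against 60.0, 60.9 and 58.4 in shGFP. The promoter of Ccl4, a chemokine, went against its RNA. It had 89.2, 106.63 and 91.97 in shSMRT against 219.16, 197.8 and 191.8 in shGFP, a difference of -1.04 ± 0.13, whereas its RNA rose by 0.41.

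Among lists of functional genes, those of lipid synthesis, stress response and proliferation had 29.5 to 40.9% of their peaks called lower, although most of their peaks were not called. Most other lists also had more peaks called lower than higher, as did all tested peaks. Peaks within 50 kb of a member's start site were counted, and over all tested peaks 6.83% were higher and 10.9% lower, with a median of -0.09. Over all lists 72 peaks were higher and 174 lower, against 111 higher and 104 lower after scaling to the sum over peaks, and 101 lower without the first shGFP library or 115 without the third. Of 44 peaks near fatty acid synthesis genes, 1 was called higher and 18 (40.9%) lower (median -0.26). Scd2, a desaturase, had 7 of 8 peaks lowered, and its RNA fell by 0.57. Near cholesterol synthesis genes 1 of 51 was higher and 16 (31.4%) lower (-0.22). Near stress response genes 0 of 48 were higher and 16 (33.3%) lower (-0.27), and near proliferation genes 0 of 44 were higher and 13 (29.5%) lower (-0.23). Xbp1, a factor of the unfolded protein response, had 4 of 9 peaks lowered, and its RNA fell by 0.45. Lysosome genes had 1 of 109 peaks higher and 12 lower (-0.09). Beside these counts, 21.9% of all tested peaks within 1 kb of a start site were lowered.

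Of 165 peaks near inflammatory genes, 14 (8.48%) were higher and 26 (15.8%) lower (median -0.04), shares not far from those of all tested peaks, and the genes differed among themselves. Ccl2 had 5 of 7 peaks raised and none lowered, and a promoter peak of its neighbour Ccl7 had 42.25, 72.6 and 42.45 in shSMRT against 19.01, 8.44 and 9.22 in shGFP, a difference of 1.75 ± 0.30. Socs3, an inhibitor of cytokine signalling, had 1 of 10 raised and 6 lowered, and its RNA fell by 0.33. Ccl4 had none of 6 raised and 3 lowered. Of 76 peaks near interferon-stimulated genes, 3 were higher and 15 lower (-0.14). A peak 9.8 kb from Mx1, which encodes an antiviral GTPase, rose by 2.19 ± 0.41, while the promoter of its neighbour Mx2 fell by 0.87 on the log2 scale, and RNA of both was under 1.3 RPKM in all 6 libraries.

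Near alternative activation genes, 8 of 64 peaks (12.5%) were higher and 3 (4.69%) lower (median 0.23), beside 6.83% and 10.9% of all tested peaks. Tgm2, the gene of transglutaminase 2, had 3 of 9 raised and an RNA rise of 2.09, and Ptgs1, the gene of the prostaglandin synthase COX-1, had 3 of 8 raised and an RNA rise of 1.32. Near osteoclast genes 6 of 72 (8.33%) were higher and 3 lower (0.02), the share higher being near that of all peaks. A peak 24.4 kb from Nfatc1, which encodes the master factor of osteoclasts, had 152.1, 130.45 and 137.24 in shSMRT against 49.2, 44.06 and 70.08 in shGFP, a difference of 1.31 ± 0.17, and its RNA rose by 0.91. The 5' end of Car2, the gene of carbonic anhydrase 2, went the other way, with 96.71, 78.27 and 108.94 in shSMRT against 162.13, 170.62 and 175.21 in shGFP, a difference of -0.82 ± 0.13, and its RNA fell by 1.04. Macrophage lineage genes had 10 of 137 peaks (7.30%) higher and 13 (9.49%) lower (-0.07), close to the shares of all peaks. Among them Mitf, a factor of the osteoclast and melanocyte lineages, had 4 of 20 raised and none lowered, with RNA up by 1.19. Runx1, a haematopoietic factor, had 1 of 24 raised and 4 lowered.

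Near targets of receptors that use SMRT, the shares called were not far from the 6.83% higher and 10.9% lower of all tested peaks. LXR and sterol efflux genes had 5 of 65 peaks (7.69%) higher and 9 (13.8%) lower (median -0.04). A peak 41.9 kb from Abca1, the cholesterol efflux pump, had 28.17, 31.76 and 22.64 in shSMRT against 0, 1.87 and 7.38 in shGFP, a difference of 2.10 ± 0.43, and its RNA rose by 0.94. In Abcg1, a related pump, an intronic peak 18.0 kb from the start had 109.85, 100.96 and 106.11 in shSMRT against 216.92, 183.74 and 185.35 in shGFP, a difference of -0.85 ± 0.12, and its RNA fell by 0.29. PPAR target and lipid uptake genes had 4 of 65 (6.15%) higher and 6 (9.23%) lower (-0.05). A peak 10.2 kb from Fabp5, a fatty acid binding protein, had 19.72, 35.17 and 28.3 in shSMRT against 95.04, 89.06 and 93.14 in shGFP, a difference of -1.60 ± 0.20, and its RNA fell by 0.95. Corepressor complex genes had 1 of 23 higher and 3 lower (-0.10). Dendritic cell and class II genes had 5 of 42 higher and 6 lower (0.06). The promoter of Cd74, the class II invariant chain, fell by 1.10 ± 0.13, and its RNA by 0.51. Of the markers of other cell types, neutrophil and mast cell genes had 1 of 15 peaks higher and none lower (median -0.09). Lymphocyte genes had none of 14 higher and 4 lower (-0.20). Fibroblast and epithelial genes had 1 of 15 called in each direction but a median of 0.38, with median values of 40.9 in shSMRT and 27.5 in shGFP.

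Called peaks also lay side by side. Runs of at least 4 neighbouring peaks called in 1 direction, with at most 25 kb between neighbours, numbered 18 higher and 49 lower. The longest raised run held 10 peaks over 53.5 kb upstream of Map4k3, a kinase of the stress pathways, with log2 differences of 0.71 to 1.42, and RNA of Map4k3 rose by 0.91. At Rcan1, 6 peaks rose over 44.1 kb. Its leading peak, in an intron (chr16:92443643-92444091), had 309.84, 339.18 and 360.79 in shSMRT against 153.19, 134.99 and 144.78 in shGFP, a difference of 1.19 ± 0.10. Further runs are named by the nearest start site, which can be far away. Runs of 5 raised peaks were assigned to Prdm1 (0.91 to 2.21), to Rbfox1, an RNA-binding protein gene (1.21 to 2.18), and to Neu4 and Pdcd1. The leading peak of the Prdm1 run lay 201 kb from the start site of Prdm1. A peak 6.0 kb from Pdcd1, the gene of the inhibitory receptor PD-1, had 117.36, 120.24 and 118.85 in shSMRT against 49.2, 41.25 and 29.51 in shGFP, a difference of 1.49 ± 0.25, and RNA of Pdcd1 rose by 2.33. Runs of 4 were assigned to Ccl2 and Ccl7 (0.61 to 1.75), to Maf and to Mir148a (0.46 to 3.47). The Mir148a run held the distant peaks described above for that gene, and the Maf run did not include the Maf peak described above.

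The longest lowered run held 9 peaks over 65.5 kb near BC039966, from -2.57 to -0.38. At Fth1, the gene of ferritin heavy chain, and Incenp, 8 peaks were lowered over 44.2 kb (-0.72 to -0.27), although RNA of Fth1 rose by 0.83. At Scd2 and Scd3, 7 were lowered over 46.1 kb (-1.03 to -0.39). Runs of 5 were assigned by nearest start site to Ccnd1, the gene of cyclin D1 (-1.34 to -0.54), and to Arhgef10l (-2.10 to -1.05). Clusters of histone genes on chromosome 13 gave 2 runs of 6. Histone genes were then picked by symbol, after the runs were seen, with a rule that also takes histone genes outside the clusters. Of their 63 tested start-site peaks, 1 was called higher and 39 lower, with medians of 245.8 in shSMRT and 299.9 in shGFP. Beside them, 21.9% of all tested peaks within 1 kb of a start site were lower. In the top bin of mean value that share was 29.8%. By gene, leaving out clone names, the largest counts of raised peaks were 11 of 14 for Map4k3, 10 of 12 for Rbfox1 and 8 of 9 for Kirrel3, and those of lowered peaks 10 of 20 for Arhgef10l, 10 of 15 for Ube2e3, 9 of 16 for Ccnd1 and 9 of 19 for Plcb4.

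**Figure D5:**
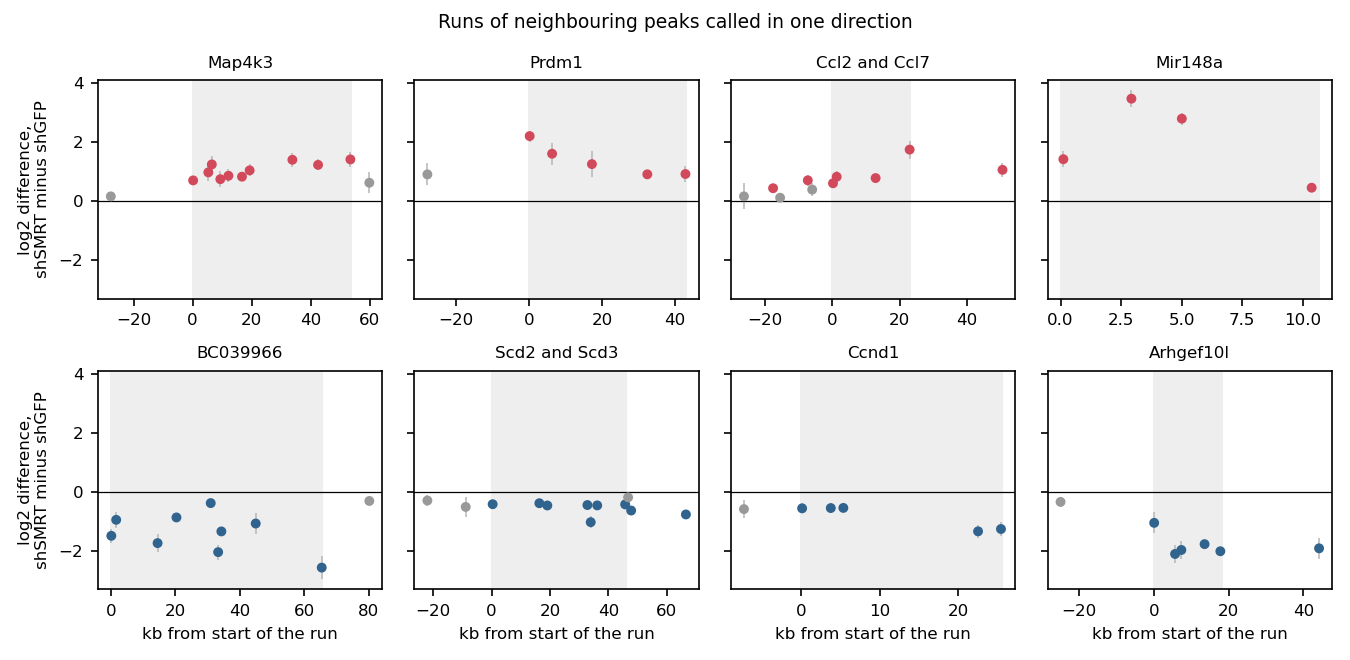
Log2 difference (shSMRT minus shGFP, bars 1 SE) of tested peaks in and around 8 runs, by distance in kb from the start of the run, which is shaded. Called peaks are red where higher and blue where lower, and uncalled ones grey. The peaks of each run share a direction, from 0.71 to 1.42 in the Map4k3 run and from -2.10 to -1.05 in the Arhgef10l run.

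The same peaks were then set against shNCOR, since a change is particular to the SMRT hairpin only where the knockdowns differ from each other. In shSMRT against shNCOR, 6.94% of peaks were called higher and 17.5% lower. Peaks off the mitochondrial chromosome took 54.1, 54.9 and 54.8% of the reads in the 3 shNCOR libraries, above every shSMRT library. The part of this gap in the counts was not tested, and no other scaling was tried for this contrast. Of the 10 most raised peaks, 10 were also higher in shSMRT than in shNCOR, and of the 10 most lowered, 5 were lower. These contrasts share the shSMRT libraries with the one that chose the peaks, so the counts are descriptions. At the Tnfsf8 peak shNCOR had 5.28, 0 and 15.22, near the shGFP values, and the difference of shSMRT from shNCOR was 3.32, as a description. The first Mir148a peak had 38.28, 39.61 and 20.3 in shNCOR, between the other groups, and shSMRT was higher by 1.61. The Cmklr1 promoter had 5.28, 1.65 and 5.07 in shNCOR, and shSMRT was higher by 3.05. The Fxyd2 promoter had 69.95, 51.16 and 69.77 in shNCOR, with 2 libraries just above the highest of shGFP, and the difference of shSMRT from shNCOR was -2.43. The Scd1 promoter had 201.93, 199.7 and 161.11 in shNCOR, and the difference of shSMRT from it was -1.12. Other changes did not differ between the knockdowns at this threshold. At the Tmem176b promoter shNCOR had 19.8, 9.9 and 15.22 (difference 0.23, SE 0.28, adjusted p = 0.60). At Lrpap1 it had 7.92, 3.3 and 7.61 (difference -0.34, adjusted p = 0.57), and at the Atp6v0d2 promoter 105.59, 125.43 and 111.64 (difference 0.37, adjusted p = 0.087). A difference that misses the threshold does not show that the hairpins act alike.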

How the data were processed

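ATAC-seq values of 9 libraries (shSMRT, shNCOR and shGFP, 3 each) and RNA-seq values of 9 further libraries were used. A merged peak list on mm10 was annotated with HOMER, per the file headers, and the deposited ATAC value, a score of reads per peak, is scaled to 10 M reads per library. No shift of reads for the transposase is stated. RNA values are RPKM over exons of RefSeq transcripts on mm10, per the file headers, with reads of both strands counted, so overlapping and antisense genes cannot be told apart. Tools listed without a role in the submitters' processing notes are MACS2, HOMER, DESeq2, Bowtie2 and HISAT2, with builds mm10 and mm9. Decimal commas were read as points. Dividing by the value of 1 read gave whole numbers (within 0.1 read) for 100% of the nonzero values checked, which left out the highest ones. The value of 1 read gave the depth: 7.07 to 10.84 M reads in the 6 libraries of the main contrast.

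All 9 libraries entered 1 limma fit (version 3.58.1, R 4.3.3, mean-variance trend) on log2(value + 5), adjusted over 51351 peaks; such fold changes understate the change of low peaks. RNA was fitted in the same way on log2(RPKM + 1) for 10789 genes that reached 1 RPKM in 3 or more libraries. Calls were made at an adjusted p under 0.05. The script was tested on simulated data.

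Members, gene lists and motifs were chosen with earlier results of these data known. Peaks named are the 10 most raised and 10 most lowered called peaks whose libraries did not overlap, 6 per direction within 1 kb of a start site, 2 per direction for each list, the nearest and most changed peak of the genes with the largest RNA changes, and the leading peaks of the 4 longest runs per direction. Other names, such as the AP-1 promoters, further runs and genes counted within lists, were chosen after their values were seen. RefSeq windows were found for 11 of 35 named promoter peaks. Of gene names that the table held as dates, 110 of 110 were restored through their RefSeq accessions. Python 3.11.15, pandas 2.3.3 and matplotlib 3.10.9 were used.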

Additional observations from a re-analysis of the deposited data

How the results depend on the processing

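None of the 110 named peaks turned its sign among 19 alternatives where it was called. Most were named for called or large differences, and the alternatives refit the same values, so a turn of sign was unlikely from the start. Of the 105 called ones, 65 stayed called under all alternatives. Counts moved more. A minimum fold of 1.2 left 1294 higher and 666 lower peaks (1071 and 307 by at least 1 unit) and ended 39 named calls. A pseudocount of 20 left 550 and 133 by at least 1 unit. Quantile normalization gave 3363 lower peaks, 749 lower by at least 1 unit, 716 lower and 246 higher promoter peaks, 106 lowered peaks near listed genes and an AP-1 share of 13.5%. Scaling to the sum over peaks gave 2723 lower peaks, 821 lower at promoters, 875 lower intergenic ones, and 111 higher and 104 lower near listed genes. Median centring on peaks beyond 20 kb, chosen after seeing the data, gave 8895 lower peaks, 3387 of them at promoters and 2290 intergenic. The causes were not tested. Leaving out 1 library gave 2716 to 4803 lower peaks (817 to 1897 at promoters, 871 to 1262 intergenic, 101 to 149 near listed genes, 31 to 39 near genes whose RNA fell) and 93 to 110 higher at promoters. Of the called named peaks, 14 to 21 lost their call in any 1 of these fits. A window of 10 kb kept 31 higher peaks near listed genes, and a gap of at most 10 kb left 7 higher and 21 lower runs, by construction. Fitting the recovered reads with limma voom, also chosen after seeing the data, called 4278 peaks higher and 6736 lower. With a replicate block 3473 peaks were higher and 5168 lower, but equal numbers did not pair the libraries (correlations of deviations -0.044, -0.024 and -0.024). The planned edgeR and DESeq2 fits were not run. Peaks of few reads limit the calls, because 1 read is worth 0.922 to 1.41 units of value in these 6 libraries.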
